A study of Drosophila melanogaster with 2 samples.

Results

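The 10 genes described here are segment polarity genes and members of the Wingless and Hedgehog pathways, taken as a named list out of 13945 protein-coding genes on the chromosome arms analysed. Of these, 7 are expressed in stripes or other patterns in the embryo (en, inv, wg, hh, ptc, ci and nkd) and 3 are expressed ubiquitously (arm, dsh and smo); this split comes from the list, and expression was not measured. The assay was ChIP-seq of HmgZ, a small chromatin protein with an HMG box, the DNA-bending fold shared by the high mobility group proteins. The strain, called HmgZ, is a transgenic Drosophila melanogaster line that stably carries HmgZ joined at its C-terminus to GFP, and whole embryos of pooled sexes, aged 4 to 24 h, made up the single group. The 2 biological replicates are numbered 1 and 3. Although a free-text label describes an input control, the antibody, assay and peak lists are those of an HmgZ ChIP. A second condition and untagged embryos were not analysed here, and the read depth of the replicates is unknown. Because the embryos were whole and spanned most of embryogenesis, strong binding in few cells and weak binding in many cannot be told apart. This matters for genes that are active in a small part of the embryo.

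Segment polarity genes divide each segment of the fly embryo into anterior and posterior cells. Cells that express the homeodomain factor en secrete the ligand hh, which binds the receptor ptc on neighbouring cells, frees the membrane protein smo and turns the zinc finger factor ci into an activator. Those neighbours secrete wg, a Wnt ligand, whose signal passes through dsh and stabilizes arm, the fly beta-catenin. The gene nkd is switched on by Wingless signalling and dampens it, and inv is a paralogue of en that lies beside it. Many of these patterned genes are classical targets of Polycomb silencing in the cells where they are off.

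Summits of the deposited peaks stood immediately before the start sites of several of these genes. The sequences below cover 50 bases to each side of a summit in dm6, read 5′ to 3′ on the strand of the named member from the RefSeq copy of that assembly. They were limited to windows clear of annotated exons. The first 3 are peaks at the promoters of wg, hh and nkd, chosen from the members' own promoter peaks, the fourth is the strongest peak inside the nkd gene, and the last is the strongest peak in the dsh window, for contrast. Capitals mark any of 10 short words searched on both strands, which in these windows are GAGAG (GAGA factor), GCCAT (Pho), GCCGCC (a helper site of TCF) and CGATA (BEAF-32), or their reverse complements.
wg promoter, chr2L:7306914-7307014, plus strand: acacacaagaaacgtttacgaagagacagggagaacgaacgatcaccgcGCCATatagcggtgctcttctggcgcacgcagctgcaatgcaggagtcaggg
hh promoter, chr3R:23141920-23142020, minus strand: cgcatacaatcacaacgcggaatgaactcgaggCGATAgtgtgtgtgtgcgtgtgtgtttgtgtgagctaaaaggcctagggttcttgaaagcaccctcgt
nkd promoter, chr3L:19045521-19045621, minus strand: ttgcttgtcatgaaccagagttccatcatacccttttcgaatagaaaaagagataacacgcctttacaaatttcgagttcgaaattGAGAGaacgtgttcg
nkd intron, chr3L:19040293-19040393, minus strand: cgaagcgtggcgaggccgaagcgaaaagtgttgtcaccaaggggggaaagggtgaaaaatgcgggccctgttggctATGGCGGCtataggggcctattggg
dsh window, inside CG1737, chrX:11351491-11351591, plus strand: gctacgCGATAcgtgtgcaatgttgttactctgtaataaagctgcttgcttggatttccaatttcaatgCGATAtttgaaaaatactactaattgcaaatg

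At the wg promoter, GCCAT covered the summit base, and in the nkd intron the reverse complement of GCCAT overlapped the reverse complement of GCCGCC. The nkd promoter sequence held 1 GAGAG. The hh promoter sequence held 1 CGATA, just before a run of GT repeats, and the dsh window sequence held 2 of them. These are matches of letters, and whether any factor binds there was not tested.

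A thresholded peak, meaning one of the 6844 that passed the irreproducible discovery rate step applied by the authors, had its summit within 250 bp of an own transcription start site in 8 of the 10 genes. Among all 13945 protein-coding genes the share was 32.8% (4574 genes, 95% Wilson interval 32.0 to 33.6, counting error only). The 8 were 6 of the 7 patterned genes, without ptc, and 2 of the 3 ubiquitously expressed genes, without dsh. In the replicates taken alone, each cut at its own 6844 strongest regions, replicate 3 had such a summit at the same number of genes in both classes. Replicate 1 had one at 6 patterned genes and at 0 of the 3 ubiquitous ones. The replicate 3 summit counted at smo came from another region, since the region matched to the smo peak ranked 8383 in that replicate. The shares of all genes were 31.2% in replicate 1 and 33.1% in replicate 3. The patterned genes with such a summit differed between the replicates, since en lacked one in replicate 1 and ptc had one there. In the full pooled list of 30000 regions all 10 genes had a summit this close, against 54.6% of all genes.

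**Figure D1:**
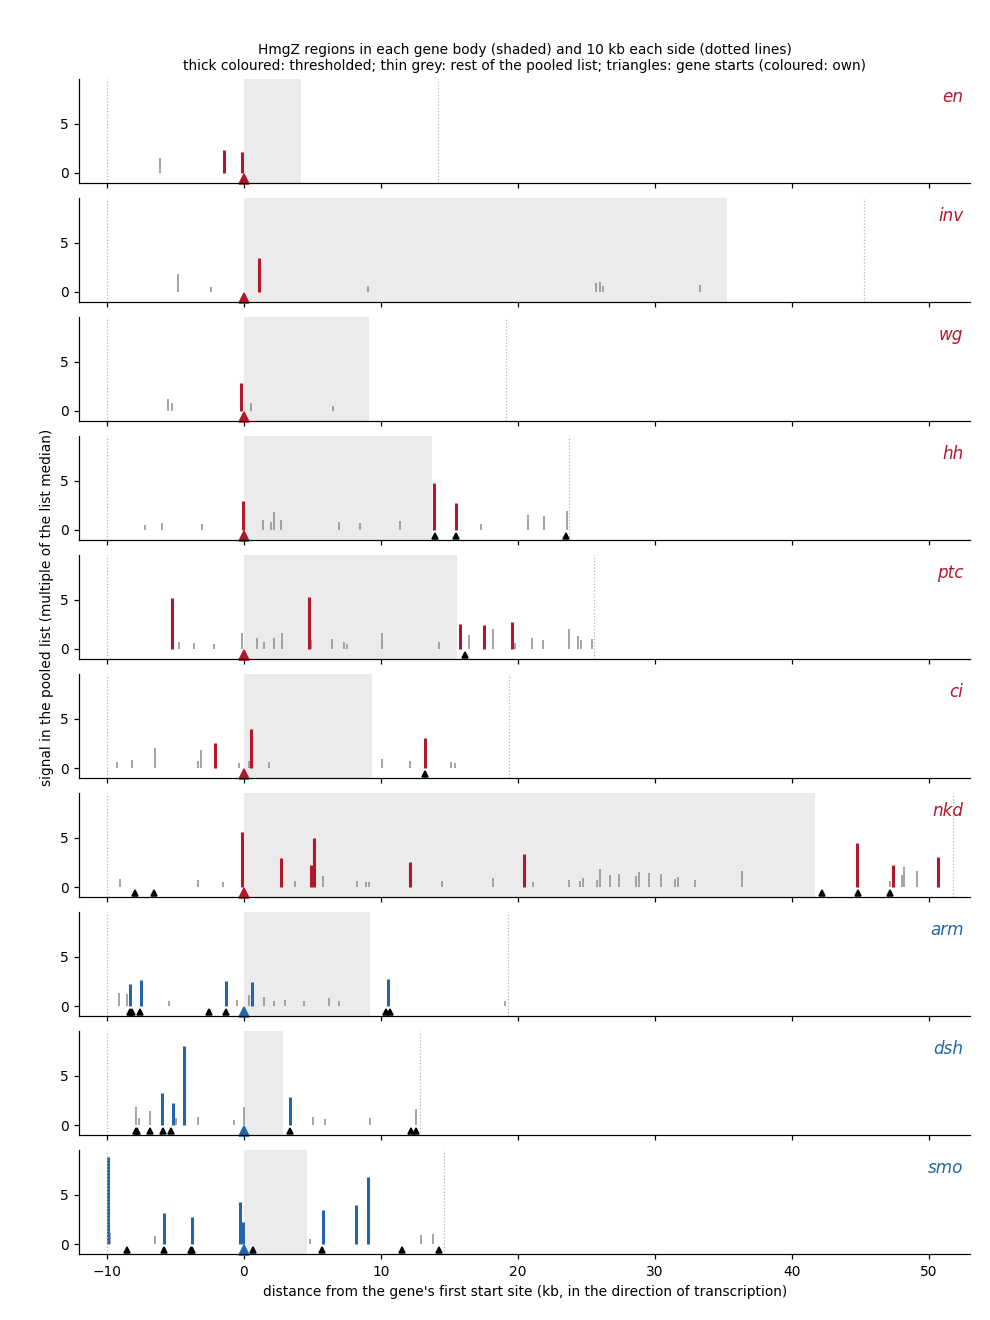
Regions of the pooled list in each gene body (shaded) and the 10 kb to each side (dotted lines). The horizontal axis is the distance in kb from the gene's first start site in the direction of transcription, the vertical axis the signal as a multiple of the pooled list's median, thick coloured lines are thresholded summits (red in patterned, blue in ubiquitous genes), thin grey lines the other regions, and triangles the starts of protein-coding genes. The 24 thresholded summits of the patterned genes include 13 outside promoters, and 16 of the 17 in the ubiquitous genes' windows are within 250 bp of a start site, mostly a neighbour's.

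Of the ligand genes, wg (2L 7307159 to 7316265, FBgn0284084) had 1 thresholded peak in its window, 195 bp before its start site. The region had a signal of 2.18 (replicate 1) and 3.13 (replicate 3) times the list median, and ranked 4485 of 6844. The other 4 regions of the pooled list in the wg window had between 0.499 and 1.19 times the median. The second ligand gene, hh (3R 23128169 to 23141906, FBgn0004644), had its promoter peak at -64 bp, with 3.11 (replicate 1) and 2.31 (replicate 3) times the median. The hh gene body held no thresholded summit and 7 pooled ones. At its far end lay a stronger peak, 60 bp before the start of CG31457, with 4.19 and 4.66 times the median in replicates 1 and 3, and another peak lay at the start of CG31365.

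The genes for the transcription factors en, inv and ci each had a promoter peak, of differing strength. The en peak (2R, summit 11528314, 104 bp before the first of its start sites) was among the weakest that passed, at rank 6782 of 6844, with 1.43 (replicate 1) and 2.43 (replicate 3) times the median. A second en peak lay 1460 bp before that start site, in the stretch upstream of en that is known for its Polycomb response elements, and had 1.93 and 2.59 times the median. For inv, the peak stood 109 bp before the downstream one of its start sites, with 2.69 (replicate 1) and 3.90 (replicate 3) times the median. The order of the replicates was thus the same at all 3 peaks, higher in replicate 3. That is also the direction of 66.2% of the 6443 thresholded peaks found in both replicates. At ci (4 47710 to 57041, FBgn0004859), which encodes the transcription factor that Hedgehog signalling controls, the promoter peak stood 146 bp before the downstream start site. The same summit lay 20 bp from the start of an annotated antisense noncoding RNA gene on the other strand, so the peak cannot be given to ci alone. It had 3.91 (replicate 1) and 3.56 (replicate 3) times the median. A second ci peak, 2082 bp upstream in an intron of that antisense gene, differed more between the replicates, with 3.07 (replicate 1) and 1.26 (replicate 3) times the median.

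The chromatin between inv and en held no summit of the lists examined. These genes (inv 2R 11474465 to 11509695, FBgn0001269; en 2R 11524006 to 11528210, FBgn0000577) are separated by 14310 bp, in which the pooled list and both replicate lists had 0 summits. The whole stretch of 73.7 kb from 10 kb before inv to 10 kb past en contained 11 pooled regions, of which 3 passed the threshold. Those 3 stood out by their letters. In the 100 bp to each side of the summit, GAGAG and its reverse complement, with overlapping matches counted, occurred 6 times at each of the en peaks and 8 times at the inv peak. Only 1.23% of all thresholded peaks held 6 or more and 0.658% held 8 or more, and 24.99% held at least 1. Runs of GA repeat count several times in this way, so these numbers describe repeat length as much as separate sites.

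The receptor gene ptc (2R 8649649 to 8665223, FBgn0003892) had its strong peaks away from its promoter. One lay 5256 bp upstream, with 5.43 (replicate 1) and 4.24 (replicate 3) times the median. The other lay in an intron 4735 bp into the gene, with 5.01 and 4.73 times. They ranked 1307 and 1259 among the thresholded peaks, above every ptc region at the promoter. There, the nearest pooled summit, at -97 bp, ranked 9488 and was below the threshold. Replicate 1 had a summit 7 bp after the start site at 2.60 times the median, while the nearest summit in replicate 3 was 262 bp before it at 1.44 times. The remaining 3 thresholded peaks of the window lay before or inside the neighbouring gene Acsl, and the one before the Acsl start differed most between the replicates, with 1.17 and 4.13 times the median.

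The Wingless antagonist nkd (3L 19003741 to 19045449, FBgn0002945) had 9 thresholded peaks in its window, the most of the 10 genes in number. Its promoter peak, 122 bp before the start site, was the strongest of the members' own promoter peaks and nearly equal in the replicates, with 5.48 (replicate 1) and 5.27 (replicate 3) times the median. The gene body held 5 thresholded and 28 pooled summits. The strongest of these, 5106 bp into the gene, had 4.21 and 5.18 times the median. The others were at 1.54 to 3.41 times the median in replicate 1 and 1.43 to 3.30 times in replicate 3. The 3 peaks beyond the gene's far end were nearest CG18135 and CG3808.

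**Figure D2:**
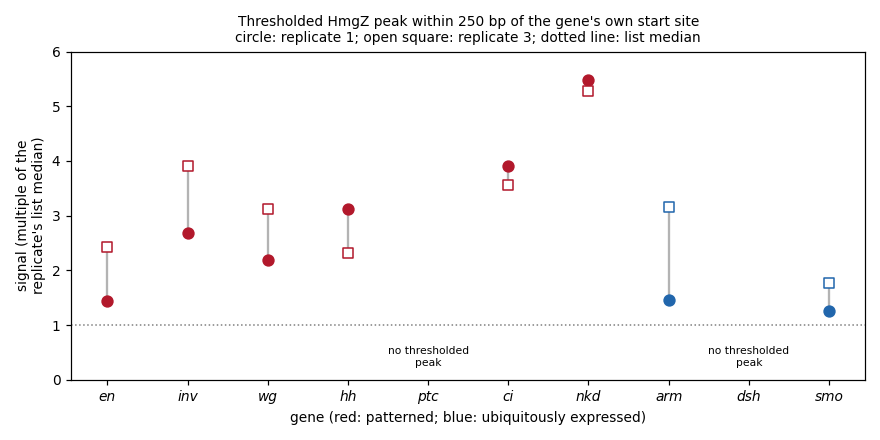
Signal of the thresholded peak within 250 bp of each gene's own start site, as a multiple of the median of that replicate's list of 30000 regions (vertical axis, dotted line at the median), for the 10 genes on the horizontal axis. Circles are replicate 1, open squares replicate 3, and grey lines join them. The nkd peak is the highest in both replicates, and en, arm and smo have the lowest values in replicate 1.

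The ubiquitously expressed genes had weak promoter peaks or none above the threshold, as had en and ptc among the patterned genes. For arm (X 1891401 to 1900646, FBgn0000117) the summit lay 155 bp after the nearest of its 4 start sites, with 1.45 (replicate 1) and 3.15 (replicate 3) times the median. The peak at smo (2L 277582 to 282167, FBgn0003444), which encodes the signal transducer that ptc holds in check, lay at -86 bp, with 1.26 (replicate 1) and 1.77 (replicate 3) times the median. It overlapped a stronger peak at the start of CG17078 (3.38 and 5.20 times), a gene whose annotated exons cover both, so the signal cannot be given to smo alone. For dsh (X 11355881 to 11358724, FBgn0000499) the pooled summit 5 bp before the start site ranked 8070, under the threshold. The dsh promoter region was nevertheless present in both replicates. It stood at -10 bp with 1.46 times the list median in replicate 1, and at -12 bp with 2.04 in replicate 3. Of the 8 promoter summits, 7 lay upstream of the nearest own start site, and arm was the exception.

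Most of the thresholded peaks around arm, dsh and smo belonged to other genes' promoters. Of the 17 summits in their windows (gene body plus 10 kb to each side), 15 had their nearest protein-coding start site in another gene, and 16 lay within 250 bp of a start site of some gene, against 58.5% of all 6844 summits. Among the neighbours were NdufV3, mRpL16, Edem1, Pa1 and Dus1. The strongest peak of the 3 windows was at CG17075, 9933 bp before smo, with 7.23 (replicate 1) and 9.42 (replicate 3) times the median. The strongest peak in the dsh window lay in CG1737, 933 bp after a start site of that gene, with 6.36 and 9.13 times. Neither can be read as binding to smo or dsh.

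Around the 7 patterned genes the balance was the other way. Of their 24 summits, 15 had the member's own start site as the nearest, 11 lay within 250 bp of a start site of any gene, 10 lay in introns outside promoters and 3 were intergenic. The introns were those of ptc and nkd, but also of Acsl, CG18135 and the antisense gene at ci. An intergenic summit of the ptc window lay 401 bp before Acsl. All 24 had a region within 100 bp in each replicate, as had 16 of the 17 in the ubiquitous windows and 94.1% of all thresholded peaks. None of the 41 summits lay in an exon outside promoters. The patterned windows held the starts of 1 to 6 protein-coding genes, the member's own included, and the ubiquitous windows 8 or 9. Across all genes, summits nearest their own start site made up 53.6% of the summits in windows with 1 or 2 gene starts, 24.3% in windows with 3 to 6 and 16.3% in windows with 7 to 9. The members with 1 or 2 starts (ci, en, inv, ptc and wg) had 8 of 12 such summits, those with 3 to 6 (hh and nkd) 7 of 12, and the ubiquitous genes, all with 7 to 9, had 2 of 17. Of the neighbours, 6 of 10 around patterned and 15 of 23 around ubiquitous genes had a thresholded summit within 250 bp of a start site. The share of all genes was 32.8%. Adjacent neighbours could share 1 summit, as trr and mRpL16 did.

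Per length of window, flanks included, the thresholded summits of the patterned genes were sparser than those of the ubiquitous genes, without overlap. They ranged from 0.181 (inv) to 1.46 (nkd) per 10 kb of window with a median of 0.889, against 1.71 (arm), 1.75 (dsh) and 3.25 (smo). The median over all 13945 genes was 0.846 (quartiles 0.190 and 1.43), and smo exceeded 99.0% of them. All 10 windows held at least 1 thresholded summit, as did 75.8% of all genes' windows. Windows with 1 or 2 gene starts had a median of 0 per 10 kb, those with 3 to 6, as at hh and nkd, 0.716, and those with 7 to 9 a median of 1.31. The part of gene density in the difference was not tested. Inside the gene bodies alone the classes overlapped, with 1.20 thresholded summits per 10 kb at nkd, 1.08 at arm, 1.07 at ci, 0.642 at ptc, 0.284 at inv and 0 at en, wg, hh, dsh and smo.

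In the pooled list the classes overlapped and the patterned genes fell into sparse and dense windows. Densities per 10 kb were 1.24 at en, 1.45 at inv and 1.72 at wg, at the 21.5, 25.2 and 27.6 percentiles of all genes. They were 5.04 at hh, 5.11 at ci, 6.32 at nkd and 7.87 at ptc, the last exceeding 97.0% of all genes, and 5.29 to 6.57 at the ubiquitous genes. Inside gene bodies of 10 kb or more (1977 genes, median 1.82 per 10 kb), the pooled density was 1.70 at inv, 5.10 at hh, 6.71 at nkd and 7.06 at ptc. The large inv gene was thus near the median, and ptc and nkd exceeded 92.5% and 91.1% of such genes.

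**Figure D3:**
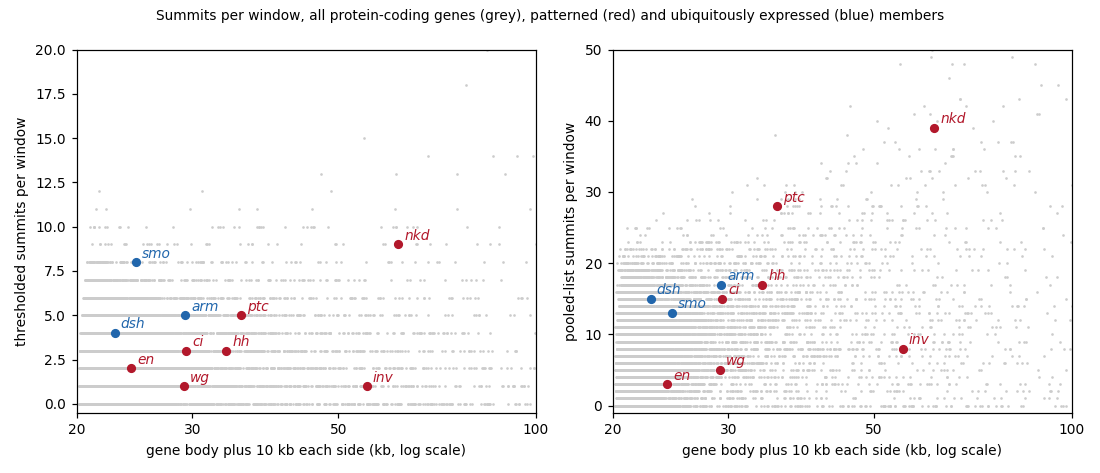
Number of thresholded summits (left) and pooled-list summits (right) per window against window length in kb on a log axis, for all protein-coding genes (grey points) with the patterned (red) and ubiquitous (blue) members named. The axes leave out 133 genes on the left and 139 on the right of 13945. The inv gene stands low for its length in both panels, ptc and nkd stand high in the right one, and smo stands high in the left one.

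Base composition set some of the promoter peaks apart. In the 100 bp to each side of the summit, G+C content was 57.7% at the en promoter peak, 56.2% at wg, 53.2% at inv and 49.8% at hh, against a median of 39.8% over the 4004 promoter peaks of the genome (quartiles 34.3 and 45.8). Values at or above those 4 were found in 1.82%, 2.75%, 6.37% and 13.4% of promoter peaks. The peaks at ci (40.8%), nkd (35.8%), smo (36.8%) and arm (46.8%) were closer to the middle. Among the members with a thresholded promoter peak, the most G+C-rich peaks were at en, wg and inv, also the 3 with the sparsest pooled windows. This did not extend to ptc. Its promoter region at -97 bp, below the threshold, had 57.2% G+C, and ptc had the densest pooled window of the members (7.87 per 10 kb).

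The words searched were compared with their share among all thresholded peaks. GAGAG was present within 100 bp of 11 of the 24 summits around patterned genes, 3 of the 17 around ubiquitous genes and 24.99% of all. The 11 included the en and inv peaks with GA repeats and peaks nearest the neighbours CG31365, CG31457, CG18135 and CG3808. The 3 were nearest Ldaf1, CG1737 and CG3625. CGATA, the BEAF-32 word, was present at 5 of 24, 8 of 17 and 39.9%, and GCCAT at 6 of 24, 6 of 17 and 29.6%. CTTTGA, the core that TCF recognizes, was present at 3 of 24, 2 of 17 and 9.67%, and TAATTA, a homeodomain core, at 3 of 24, 1 of 17 and 13.2%. The promoter word TATCGATA, which overlaps CGATA, was at 1 of 24, 2 of 17 and 7.26%, GGTCACACT (M1BP) at 1, 1 and 4.85%, and GCCGCC at 2, 0 and 7.61%. Within the same 100 bp the Ci site TGGGTGGTC was found at no member peak, with 0.0584% of all peaks holding it, and CAGGTAG (Zelda) at none, with 0.847%. Within 150 bp the Ci site was at 1 of the 24 patterned summits and 0.146% of all.

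The other genes of both pathways were compared by role, in a list of 50 genes that had been chosen with earlier results of these data known. A thresholded promoter summit was present at 25 of the 50, against 32.8% of all genes, and the roles differed widely. The list was not drawn at random, so these shares were not compared by a test. Of 9 genes for Wnt ligands and their processing, 0 had one, among them Wnt2, Wnt4 and Wnt5, and the Wnt2 window had no region even in the pooled list. A promoter summit of the pooled list was present at 5 of the 9, Wnt4 and Wnt5 included, against 54.6% of all genes. Of 6 other segment polarity transcription factor genes, 0 had a thresholded one, gsb, gsb-n and slp1 among them, and 4 had one in the pooled list. In contrast, 12 of 13 genes for Wingless signal transduction and nuclear factors had a thresholded one, the exception being pan, the gene for TCF. Signals were highest at gish (23.0 (replicate 1) and 23.2 (replicate 3) times the median) and sgg (12.9 and 15.9 times), both genes for kinases. They were lower at gro, which encodes a corepressor (8.53 and 10.1 times), and at CkIalpha (5.63 and 5.84 times).

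Receptor genes of the Wingless pathway had a thresholded promoter summit in 5 of 7 cases. Signals in replicates 1 and 3 were 4.41 and 3.13 times the median at arr, the co-receptor, and 3.92 and 2.98 times at the receptor gene fz2. The summits at dlp and dally belonged to proteoglycan genes, and the dlp summit had a region within 100 bp in replicate 3 only. No thresholded promoter summit was found at fz and fz4, but both had one in the pooled list. Among the 6844 strongest regions of each replicate, 7 of the 7 receptor genes had one in replicate 1 and 4 in replicate 3. On the Hedgehog side, 6 of 8 genes for ligand release, receptors and co-receptors had one. The highest in this group was sotv, an enzyme gene of heparan sulfate synthesis, at 4.83 and 5.67 times, followed by disp, ttv and botv. The disp summit was nearest a start site of ECSIT. It had a region within 100 bp in replicate 3 only (4.60 times), so the place of disp rests on that replicate. Neither rasp nor shf had a thresholded one, and rasp had one in the pooled list. Of 7 genes for Hedgehog signal transduction, 2 had one, Pka-C1 and Gprk2, a share of 28.6% near the 32.8% of all genes. The Gprk2 summit was nearest a start site of PNPase, and the Pka-C1 summit had a region within 100 bp in replicate 3 only. Among the 6844 strongest regions of the replicates taken alone, 2 of the 7 genes had one in replicate 1, namely Gprk2 and rdx. In replicate 3 there were 4, namely cos, Su(fu), Pka-C1 and rdx. The genes without a thresholded summit were cos, fu, Su(fu), rdx and Cul3, and these 5 had one below the threshold in the pooled list, where 54.6% of all genes had a promoter summit.

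**Figure D4:**
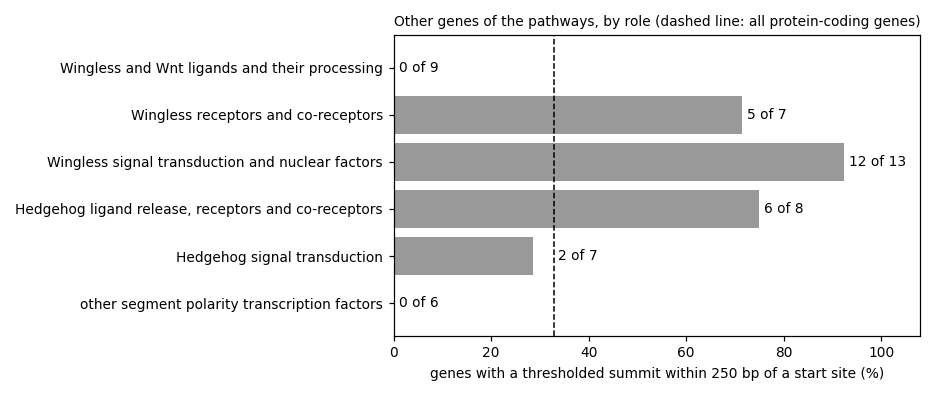
Share of genes with a thresholded summit within 250 bp of a start site (horizontal axis, %) for 6 roles in the Wingless and Hedgehog pathways (vertical axis), with counts beside the bars and the 32.8% of all protein-coding genes as a dashed line. The bars are at 0 for Wnt ligand genes and other segment polarity factors and at 12 of 13 for Wingless signal transduction.

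At the outer limit of the windows, 10 kb from the gene, the peak at CG17075 lay just inside for smo, and the next peak outside it was 10315 bp from the gene and ranked 4974. For ci the first peak outside, 10204 bp from the gene, was nearest RpS3A, and for wg it was 11067 bp away, ranked 4750 and had wg as its nearest gene.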

How the data were processed

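The data were HmgZ ChIP-seq regions of 2 biological replicates (whole embryos). Per the deposited file descriptions, regions on dm6 were called per replicate and on pooled alignments, with 1 control alignment in common, and the thresholded peaks were derived from those 3 lists. Neither aligner nor caller is named in the sources used here. The deposited signal value of each region, as the authors gave it, served to rank regions within a list and was divided by that list's median. The thresholded set equalled the 6844 strongest of 30000 pooled regions. Read depth is unknown, and the interval given for all genes covers counting error only.

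Summits were counted in each gene body plus 10 kb to each side and within 250 bp of start sites of the Ensembl 115 annotation, without pseudogenes and transposable elements. Replicate values came from the region with a summit within 100 bp. No test was run, since there was 1 group. The members and gene lists were chosen with earlier results of these data known. Named were the members, the genes nearest their summits and, in each role, up to 4 genes with and 3 without a promoter summit, while rdx and Cul3 were added after their values were seen. The counting was tested on simulated data (200 of 200 planted promoters recovered among 13945 genes). Software was Python 3.11.15 with numpy 2.4.6 and pandas 2.3.3.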

Additional observations from a re-analysis of the deposited data

How the results depend on the processing

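With the gene body alone, the patterned genes held 8 thresholded summits in place of 24 and the ubiquitous genes 1 in place of 17, and the ubiquitous genes held 7 with 2 kb and 11 with 5 kb added. Counting only summits nearest the member's own start site left 15 and 2. The strongest 3422 peaks left 9 and 6 summits, and the whole pooled list gave 115 and 45 summits. Promoter summits among the strongest 3422 peaks were at 3 patterned, 0 ubiquitous and 12 of the 50 pathway genes. The share of all genes was not counted at this cut, so these promoter counts cannot be set against a background. The 32.8% of all genes belongs to the full thresholded set. With 1 replicate left out, summits numbered 21 to 26 in patterned and 14 to 15 in ubiquitous windows, and promoter summits were at 6 patterned genes, 0 to 2 ubiquitous and 24 to 26 pathway genes. The value of 0 came without replicate 3. The arm call rests on that replicate, where the matched region ranked 3959, against 10016 in replicate 1. The region matched to the smo peak ranked 11723 in replicate 1 and 8383 in replicate 3. It was outside the strongest regions of both, so the smo call rests on the pooled list. Motif matches fell from 55 to 36 in windows of 50 bp each side. The order of the members' promoter peaks was the same with percentiles in place of multiples of the median. Read depth, unknown here, limits what can be said of the regions below the threshold. No paired analysis was possible because there is 1 group.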
